A study of Homo sapiens with 2 samples.

Results

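The 5 genes FANCD2, FANCI, BRCA2, BARD1 and CHEK2 act in the Fanconi anaemia and homologous recombination routes of DNA repair and in the checkpoint that goes with them. They were picked by name from a table of 1947 genes, with their levels in these libraries already known, so their own differences are given as descriptions with no test. All 5 were in the table. RNA was sequenced from C4-2, an established human prostate cancer line derived from LNCaP. One dish was given vehicle and the other ebastine, an antihistamine drug that blocks the H1 receptor; both cultures were grown in RPMI-1640 with serum at passage 10 to 15 and left 24 h to attach before treatment. The sources used here give neither the dose nor the duration of treatment. There was 1 library per group, so the values carry no replicate error, and any difference is one between 2 libraries of a single cell line.

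The Fanconi anaemia pathway repairs crosslinks that tie the strands of DNA together and block replication. A core complex of FANC proteins acts as a ubiquitin ligase that, with the conjugating enzyme UBE2T, attaches ubiquitin to the paired proteins FANCD2 and FANCI, and the deubiquitinase USP1 removes it. Breaks that arise during this repair are mended from the sister chromatid by homologous recombination, in which the ligase BRCA1-BARD1 and the mediator protein BRCA2 take part. CHEK2 is a kinase that ATM activates after double-strand breaks. Transcripts of many of these genes are known to be most abundant in cells that are in S and G2 phase. In prostate cancer, inherited or acquired mutations in BRCA2 and CHEK2 are among the better known repair gene defects.

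Levels were in FPKM, fragments per kilobase of transcript scaled to the mapped fragments of the library, a unit that allows genes to be compared per length. Ratios were log2((ebastine FPKM + 1)/(vehicle FPKM + 1)). The table ended at a p-value of 0.0499, so it held 14.2% of the 13714 genes that the authors tested, and every gene in it had to differ between the libraries. A listed gene can therefore not show stability, and nothing is known here of genes outside the table. The sequencing depth is unknown. The 1768 listed genes that averaged 1 FPKM or more over both libraries had a median log2 ratio of -0.32. Of these, 57.0% were lower and 43.0% higher with ebastine. Because the p-value limit leaves out genes near equal levels, this median reflects that split and is not a typical shift. Of 11 markers of prostate luminal cells and C4-2, 6 were listed, 3 lower (KLK3, KLK2 and TMPRSS2) and 3 higher (FOLH1, STEAP2 and ACPP). Their summed level was 3878 FPKM after vehicle and 3127 FPKM after ebastine, and without KLK3 it was 1401 and 1527 FPKM. The other 5 were not listed. Of 5 basal, 5 fibroblast, 4 endothelial and 5 leukocyte markers, 0 were listed, which sets no level for them.

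FANCD2, FANCI, BRCA2 and CHEK2 were lower in the ebastine library, at 56.2% to 61.9% of their vehicle level, and BARD1 was higher, at 135%. The 4 lower genes were each at least 1.5-fold lower; among the 1768 listed genes 18.6% were, a share from the same contrast that chose the genes. In the vehicle library the levels ran over a 5.68-fold range, from BRCA2 at 8.04 FPKM to FANCI at 45.7 FPKM, with FANCD2, BARD1 and CHEK2 between them in that order. In the ebastine library the range was 6.07-fold, from 4.57 FPKM for BRCA2 to 27.7 FPKM for FANCI, and BARD1 had moved past CHEK2. Without replicates it cannot be said which neighbours in these orders differ beyond their spread. In the authors' deposited table the q-value was 0.00178 for FANCD2, FANCI, BRCA2 and CHEK2 and 0.0897 for BARD1, from a test that compares 2 libraries and not the conditions. All 4 lower genes shared the smallest p-value of that table, 5e-05, with 381 other genes.

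**Figure D1:**
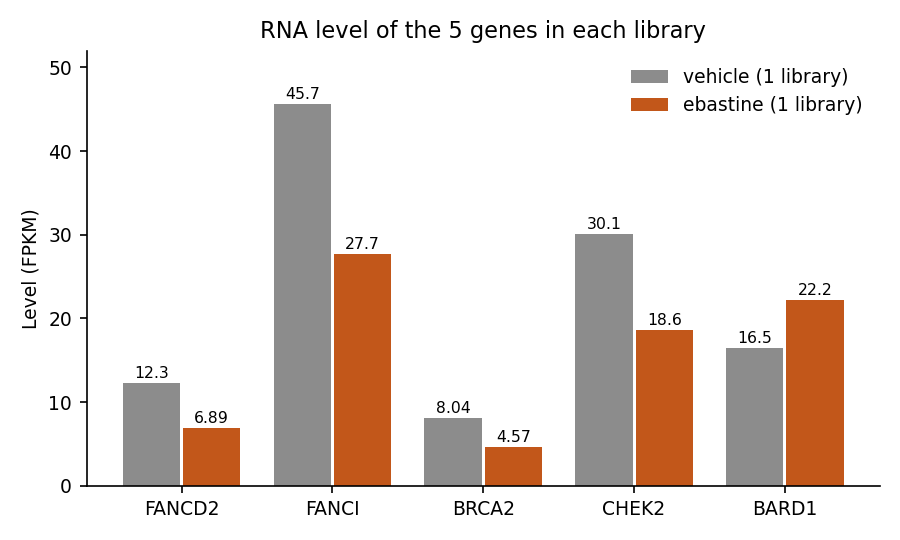
Level of each of the 5 genes in FPKM, with 1 bar for the vehicle library and 1 for the ebastine library; there are no error bars because each group had 1 library. FANCD2, FANCI, BRCA2 and CHEK2 had the shorter bar with ebastine, and BARD1 went from 16.5 to 22.2 FPKM.

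**Figure D2:**
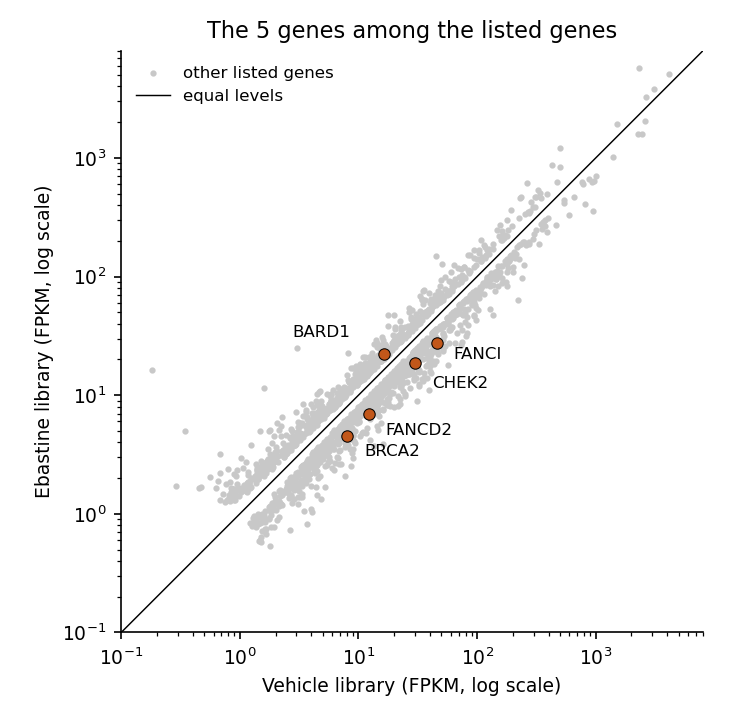
Level with vehicle (x axis) against level with ebastine (y axis), both in FPKM on log axes, for listed genes averaging 1 FPKM or more with a value above 0 in both libraries. The empty band along the line of equal levels is the authors' p-value limit, and BARD1 alone of the 5 genes lies above the line.

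The promoters of 4 of the 5 genes were found in the RefSeq table (build GRCh38.p14), and FANCI had no entry. They were searched, from 250 bases before to 50 bases after the transcript start and on both strands, for letters that cell cycle genes and housekeeping genes often carry. The E2F letters were TTTCCCGC, TTTGGCGC, TTTCGCGC or TTTGCCGC, those of the cell cycle homology region (CHR) were TTTGAA, the CCAAT box was CCAAT and the SP1 box was GGGCGG. None of these letter strings contains another. Windows of 3 genes are shown because they differ in what they hold: FANCD2, which was lower, has the E2F letters, CHEK2, which was lower, has CCAAT boxes, and BARD1, which was higher, has SP1 boxes only. Each runs 5′ to 3′ on its gene's strand, from 250 bases before to 30 bases after the start, with the matches in capitals (a match on the other strand reads as the reverse complement).
FANCD2, chr3:10026187-10026466, plus strand: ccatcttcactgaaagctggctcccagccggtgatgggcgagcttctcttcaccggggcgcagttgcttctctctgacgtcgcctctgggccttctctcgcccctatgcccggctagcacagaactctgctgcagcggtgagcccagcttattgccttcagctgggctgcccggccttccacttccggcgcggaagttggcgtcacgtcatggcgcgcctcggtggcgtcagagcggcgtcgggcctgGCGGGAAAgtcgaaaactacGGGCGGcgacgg
CHEK2, chr22:28741791-28742070, minus strand: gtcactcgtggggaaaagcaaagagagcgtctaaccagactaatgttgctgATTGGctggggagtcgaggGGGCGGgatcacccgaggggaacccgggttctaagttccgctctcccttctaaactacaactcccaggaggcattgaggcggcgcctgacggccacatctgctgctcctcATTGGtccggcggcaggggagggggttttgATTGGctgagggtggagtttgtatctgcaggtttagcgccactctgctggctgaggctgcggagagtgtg
BARD1, chr2:214809654-214809933, minus strand: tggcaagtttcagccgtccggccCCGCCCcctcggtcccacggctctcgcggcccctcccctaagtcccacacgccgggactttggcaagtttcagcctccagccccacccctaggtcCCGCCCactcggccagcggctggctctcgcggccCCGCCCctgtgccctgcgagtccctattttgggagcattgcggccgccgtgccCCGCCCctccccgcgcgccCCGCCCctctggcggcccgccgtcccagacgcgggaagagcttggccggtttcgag

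The FANCD2 window held 1 E2F match, on the opposite strand and across the transcript start, and 1 SP1 box. E2F letters stood in 3.31% of all 35116 RefSeq promoters and in 6.0% of the 1384 table genes with a promoter entry. CHEK2 held 3 CCAAT boxes, all on the opposite strand, and 1 SP1 box. CCAAT stood in 34.6% of all promoters and in 41.5% of those of table genes. BARD1 held 5 SP1 boxes, all on the opposite strand, where 45.0% of all promoters and 70.2% of those of table genes held at least 1; its window was also the richest in G and C, at 73.7% against a mean of 57.5% over all promoters. The BRCA2 window held none of the 4 motifs. TTTGAA was in none of the 4 windows and in 15.2% of all promoters. No motif was in all 3 of the lower genes with a window, and a match describes letters, not binding.

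**Figure D3:**
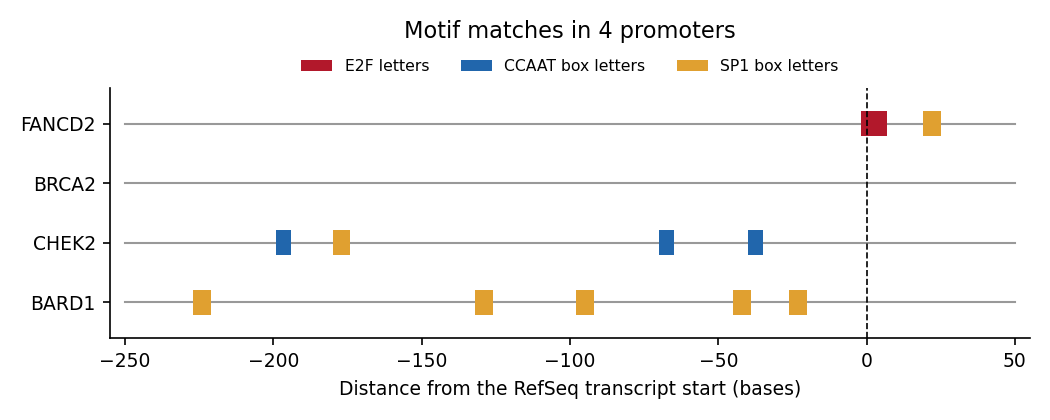
Position of motif matches in the 4 promoters, as distance in bases from the RefSeq transcript start (dashed line); each box is 1 match on either strand, coloured by motif. The E2F letters appear in FANCD2 alone of the 4, the CCAAT boxes in CHEK2 alone, and BRCA2 has no box.

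FANCD2 and FANCI form the heterodimer that the Fanconi core complex ubiquitinates. FANCD2 (chromosome 3, 10068113 to 10149915 in hg19) had 12.3 FPKM in the vehicle library and 6.89 FPKM in the ebastine library, for a log2 ratio of -0.75. FANCI (chromosome 15, 89787194 to 89878026) had 45.7 and 27.7 FPKM, a log2 ratio of -0.70. Both were thus lower by similar factors, and FANCI was 3.73 times as abundant as FANCD2 with vehicle and 4.03 times with ebastine. A ratio of 2 genes within a library does not depend on how the libraries were scaled. The longest coding transcripts in GENCODE release 29 are 5.22 kb in 43 exons for FANCD2 and 4.74 kb in 38 exons for FANCI. The reported locus of FANCI spans 90.8 kb where the RefSeq gene spans 73.3 kb. In RefSeq the mitochondrial polymerase gene POLG overlaps FANCI. FANCD2 spans 81.8 kb against 75.5 kb, overlaps FANCD2OS in RefSeq and has 2 named pseudogenes. None of these was in the table, the sources used here do not give the strand setting, and reads of these neighbours or copies could not be told apart.

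Other Fanconi genes in the table were lower too. Of 24 genes on the Fanconi list 10 were listed and all 10 were lower, where 57.0% of all listed genes were lower. Of the 10, 5 passed the 1.5-fold limit, where 18.6% of all listed genes and 328 of the 1007 lower ones did. The median log2 ratio of the 10 was -0.57. The median of -0.32 over all listed genes mixes lower and higher genes, so it does not measure how large this drop was. UBE2T, the conjugating enzyme that works with the core complex, was the most abundant, with 137 FPKM against 84.3 FPKM. FANCG, a subunit of the core complex, stood at 31.5 and 19.8 FPKM, and FAAP24, listed as C19orf40, which with FANCM anchors the complex to DNA, at 5.0 and 2.88 FPKM. These 3 and the FANCD2-FANCI pair made up the 5. Differences were smaller for FANCM, at 3.59 and 2.66 FPKM, and for its partner CENPS, listed as APITD1, at 37.0 and 25.6 FPKM. The reported locus of CENPS spans 21.9 kb, where its RefSeq gene spans 12.4 kb. USP1, which removes ubiquitin from FANCD2, went from 31.7 to 24.6 FPKM, 1.28-fold lower. The helicase BRIP1 and the REV7 protein MAD2L2 were 1.23-fold and 1.29-fold lower. In the authors' deposited table q was below 0.05 for the same 5 genes, or 50%, where 42.3% of the 1768 listed genes passed in either direction, and it ran from 0.124 to 0.282 for the others. The 14 genes not listed included the core subunits FANCA, FANCB, FANCC, FANCE, FANCF and FANCL.

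BRCA2 loads the recombinase onto single-stranded DNA so that it can search for the matching sequence. BRCA2 (chromosome 13, 32889617 to 32973809) measured 8.04 FPKM after vehicle and 4.57 FPKM after ebastine, for a log2 ratio of -0.70. It was the lowest of the 5 genes in both libraries, with a longest coding transcript of 12.0 kb in 27 exons. Because of its low level the pseudocount matters: without one the ratio is 1.76-fold, against 1.62-fold with 1 FPKM added. In the RefSeq annotation BRCA2 overlaps ZAR1L and the pseudogene IFIT1P1, neither of which was in the table. The reported locus spans 84.2 kb, beside 85.2 kb for the RefSeq gene.

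Listed genes of homologous recombination were lower apart from BARD1. Of 43 genes 21 were listed, 20 lower and 1 higher, where 57.0% of all listed genes were lower. Of these 21, 6 passed 1.5-fold downward, or 28.6% beside 18.6% of listed genes. That general share includes higher genes: of the 1007 lower listed genes, 328 passed. The count is therefore not an excess over other lower genes. The median log2 ratio of the 21 was -0.49. The single-strand binding subunit RPA3 was at 38.9 and 23.1 FPKM, over a reported locus of 242 kb where its RefSeq gene spans 82.1 kb. The helicase BLM, which dissolves recombination intermediates, was at 4.76 and 2.75 FPKM. The nuclease subunit EME1 had the lowest ratio of the list, -0.98, from 16.1 to 7.67 FPKM; its q was 0.279 by the authors' deposited table, and its reported locus of 24.3 kb exceeds the RefSeq gene of 8.26 kb. RAD54L lay just short of the limit at 1.499-fold lower, from 16.4 to 10.6 FPKM. The translocase RAD54B was 1.43-fold lower, the nuclease and end resection genes MRE11 (listed as MRE11A), DNA2, RBBP8 and EXO1 were lower by 1.40-fold, 1.38-fold, 1.34-fold and 1.30-fold in that order. The resolvase GEN1 was 1.40-fold lower. The BLM partners RMI1 and RMI2 were 1.32-fold and 1.28-fold lower, and XRCC2, FIGNL1, MCM8 and SFR1 were 1.27-fold to 1.29-fold lower. The reported loci of RAD54L, GEN1 and RMI2, at 55.7, 136 and 102 kb, also exceed their RefSeq genes of 30.8, 35.7 and 6.30 kb. Of the 21 genes, 9 had q below 0.05 in the authors' deposited table, all of them lower, or 42.9%, where 42.3% of the 1768 listed genes passed in either direction. PALB2, RAD50, NBN, RPA1 and RPA2 were among the 22 not listed.

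BARD1 is the obligate partner of BRCA1, and their RING domains together form a ubiquitin ligase. BARD1 (chromosome 2, 215593275 to 215674428) measured 16.5 FPKM after vehicle and 22.2 FPKM after ebastine, for a log2 ratio of 0.41. Its ratio lay at percentile 77.1 of the 1768 listed genes, of which 43.0% were higher by any amount, and it was short of 1.5-fold, the limit that 9.67% of listed genes passed upward. BRCA1 went the other way, from 17.4 to 11.5 FPKM, with a q-value of 0.0498 in the authors' deposited table. The level of BARD1 relative to BRCA1 was thus 0.946 with vehicle and 1.93 with ebastine, a 2.04-fold difference that no scaling of the libraries alters. Relative to BRCA2, BARD1 went from 2.05 to 4.86. The longest coding transcript of BARD1 has 5.50 kb in 11 exons. No gene overlaps BARD1 in the RefSeq annotation, and no pseudogene is named after it. Which of its 7 coding transcripts in GENCODE were measured is not given by a table of gene totals.

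CHEK2 is the effector kinase downstream of ATM and phosphorylates BRCA1 and CDC25 phosphatases. CHEK2 (chromosome 22, 29083731 to 29137822) measured 30.1 FPKM after vehicle and 18.6 FPKM after ebastine, for a log2 ratio of -0.66. With a pseudocount of 1 FPKM its ratio was the nearest to 0 of the 4 lower genes, but with a pseudocount of 5 FPKM it was -0.57, farther from 0 than FANCD2 at -0.54 and BRCA2 at -0.45. CHEK1, the kinase of the ATR branch, was at 20.5 and 14.02 FPKM, so that CHEK2 ran at 1.47 times the level of CHEK1 with vehicle and 1.33 times with ebastine. The reported locus matches the RefSeq gene, 54.1 kb in each. CHEK2 has 6 named pseudogenes in RefSeq, none of them in the table, and the sources used here do not say how reads shared with such copies were assigned, so its level is uncertain by an unknown amount.

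All listed checkpoint genes were lower. Of 26 genes 10 were listed and all 10 were lower, where 57.0% of all listed genes were. Of the 10, 4 passed the 1.5-fold limit, where 18.6% of all listed genes and 328 of the 1007 lower ones did. The median log2 ratio of the 10 was -0.53. The phosphatases that switch on cyclin-dependent kinases had the lowest ratios: CDC25C was at 10.2 and 4.53 FPKM, with a q-value of 0.190 in the authors' deposited table, and CDC25B was at 14.1 and 7.73 FPKM, with a q-value of 0.00178. Histone H2AX, listed as H2AFX, whose phosphorylated form marks breaks, stood at 154 and 102 FPKM. Besides these, CHEK2 was the fourth. WEE1, the kinase that opposes CDC25, was 1.39-fold lower, the fork protein TIMELESS 1.45-fold, the ATR activators TOPBP1 and ETAA1 1.32-fold and 1.27-fold, and the break scaffold MDC1, whose reported locus lies on an alternative haplotype of chromosome 6, 1.35-fold. ATM and ATR were not listed.

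Over the Fanconi, homologous recombination and checkpoint lists, 41 of 93 genes were listed and BARD1 was the 1 that was higher. Without the 5 genes, 36 were listed and all 36 were lower, where 57.0% of all listed genes were lower by any amount. Of the 36, 11, or 30.6%, were at least 1.5-fold lower, where 18.6% of all listed genes were. That general share includes higher genes: of the 1007 lower listed genes, 328 were at least 1.5-fold lower. The 11 of 36 is therefore not an excess over other lower genes. The median log2 ratio of the 36 was -0.49. Genes that mark S phase and G2/M were lower as well. Of 36 S phase genes 23 were listed and all 23 were lower, with a median log2 ratio of -0.51 and sums of 1227 FPKM after vehicle and 813 FPKM after ebastine, 66.3% of vehicle. Examples were TK1, at 161 and 87.6 FPKM, and PRIM1, at 52.2 and 31.3 FPKM. Of 35 G2/M genes 35 were listed and all were lower, with a median of -1.15 and sums of 2387 and 1222 FPKM, 51.2% of vehicle. The lists were chosen with earlier results of these data known, so they are no independent yardstick for one another. The listed Fanconi genes summed to 65.9% of vehicle, the homologous recombination genes to 70.7% and the checkpoint genes to 66.3%. The part that the share of cycling cells has in the levels of FANCD2, FANCI, BRCA2 and CHEK2 was not tested, and fewer cells in S and G2 phase cannot be told apart from less RNA per cell in a bulk library.

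**Figure D4:**
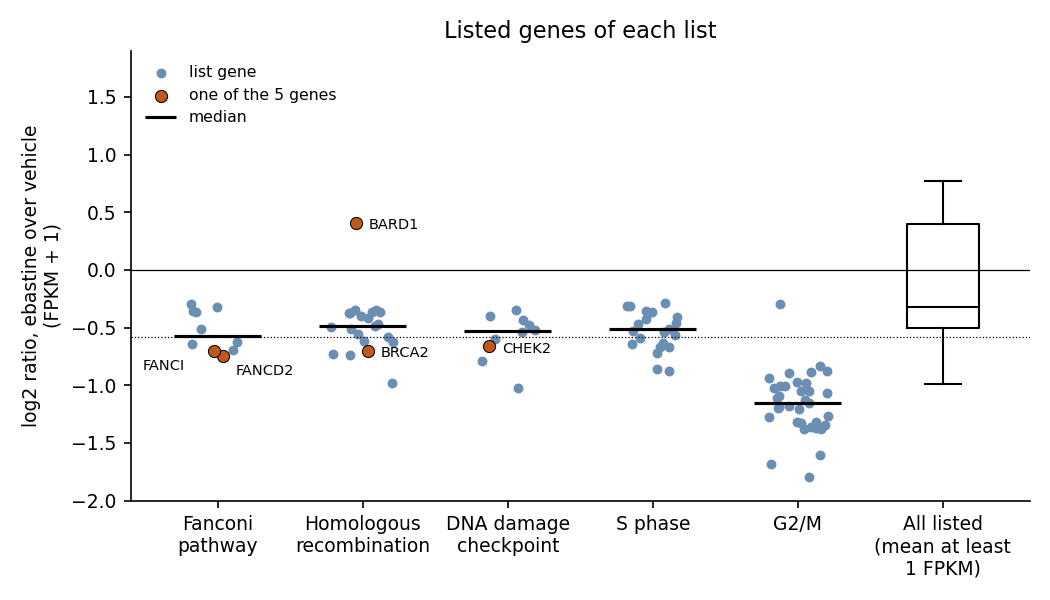
Log2 ratio of ebastine over vehicle, on FPKM + 1, for each listed gene (points, spread sideways for display) of 5 lists, with the median as a bar; the box at the right shows the quartiles and the 5th and 95th percentiles of the 1768 listed genes averaging 1 FPKM or more. The dotted line marks 1.5-fold lower, and the 3 repair lists lie near the S phase list and above the G2/M list, with medians of -0.57, -0.49, -0.53, -0.51 and -1.15 from left to right.

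The size of these differences depended on how the 2 libraries were scaled. The scalings tried were computed from the listed genes alone, which the p-value limit chose. They therefore do not estimate an offset between the libraries, and show only how the values move. Setting the median log2 ratio of listed genes averaging 10 FPKM or more to 0 (centring) multiplied the ebastine values by 1.26, or 0.34 on the log2 scale. The log2 ratios were then -0.45 for FANCD2, -0.38 for FANCI, -0.42 for BRCA2, -0.34 for CHEK2 and 0.73 for BARD1. No gene of the 5 was then 1.5-fold lower, where 6.90% of all listed genes were, and BARD1 was past 1.5-fold higher, as 39.9% of all listed genes were at that scaling. Equal upper quartiles, a factor of 1.15, gave -0.57, -0.50, -0.53, -0.47 and 0.60 in the same order. In each of these settings FANCD2, FANCI, BRCA2 and CHEK2 were lower and BARD1 was higher. After centring the 36 other listed genes of the 3 lists were still all lower, where 52.5% of all listed genes were. Most lower genes stayed lower, however: 1007 listed genes were lower before centring and 928 after, so this is not particular to the 36. Their centred ratios ran from -0.74 for CDC25C to -0.029 for USP1, which is barely below 0.

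**Figure D5:**
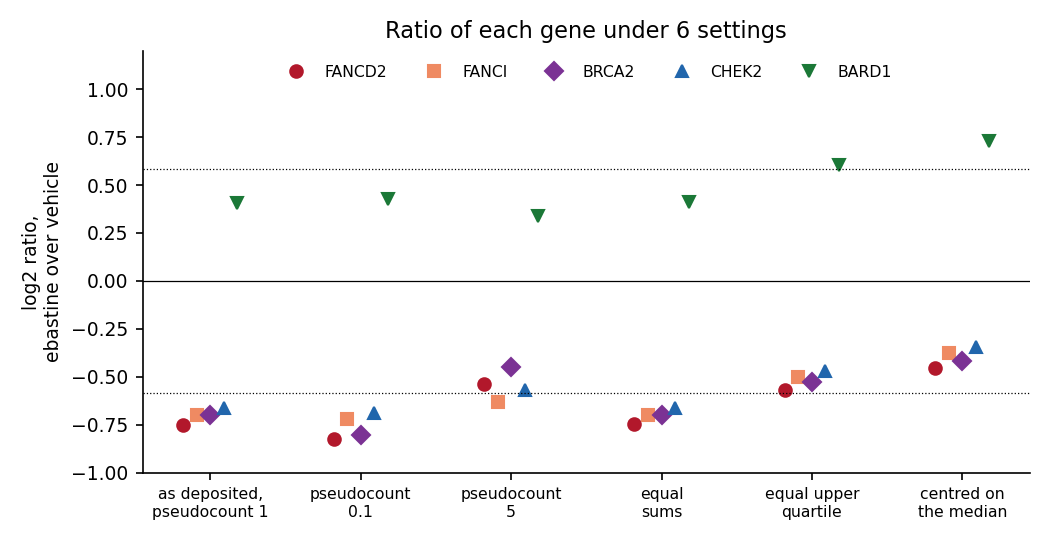
Log2 ratio of ebastine over vehicle for each of the 5 genes (symbols) as deposited with a pseudocount of 1 FPKM, with 2 other pseudocounts and with 3 other scalings of the libraries. Dotted lines mark 1.5-fold in either direction, and BARD1 stays above 0 and the other 4 below 0 in all 6 settings. With equal upper quartiles and after centring the 4 move inside the dotted line and BARD1 passes the upper one. With a pseudocount of 5 FPKM, FANCD2, BRCA2 and CHEK2 move inside and FANCI does not.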

How the data were processed

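Per the submitters' processing notes, TopHat2, Cuffdiff and the hg19 build were used, with no versions. The deposited FPKM values, 1 library per group, were estimated and scaled by the authors' Cuffdiff, per the file headers; the sources used here do not give the gene models, the strand setting or the scaling method. The authors' log2 fold change, p-value and q-value were copied from the deposited table, and the deposited test statistic, a score, was not used. The number of genes the authors tested was taken from q times rank over p.

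Ratios added a pseudocount of 1 FPKM to both values, so changes of low genes come out too small. Counts used a minimum mean of 1 FPKM and a limit of 1.5-fold. No test was run, since each group held 1 library. The 5 genes, the 7 gene lists, the 5 marker lists and the motifs were chosen with earlier results of these data known. Genes were matched by symbol or older name (gene tables and RefSeq GRCh38.p14). Locus starts, which count from 0 in the file, were raised by 1. Named genes were the 5 genes, the listed genes of the 3 lists they belong to, up to 4 genes of each other list (those with the lowest ratios where its median was below 0), and the 3 genes nearest to each of the 5 in log2(FPKM + 1). Some genes that this rule names are not reported here. The ratio and motif code was tested on simulated data. Python 3.11.15, pandas 2.3.3 and numpy 2.4.6 were used.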

Additional observations from a re-analysis of the deposited data

How the results depend on the processing

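No paired analysis was possible because each group held 1 library. FANCD2, FANCI, BRCA2 and CHEK2 were lower and BARD1 higher under all 5 pseudocounts and scalings tried, and the median log2 ratio of the 5 genes ran from -0.72 to -0.38 over 6 alternatives. Counts of genes at least 1.5-fold lower moved. The scalings used listed genes only, so a count that moved under them does not show that the libraries were offset. The 4 of 5 genes became 1 with a pseudocount of 5 FPKM, and 0 after centring, with equal upper quartiles and at a limit of 2-fold. The 5 Fanconi genes became 2 with a pseudocount of 5 FPKM, 0 after centring, with equal upper quartiles and at 2-fold, and 9 at the looser fold limit tried. The 6 homologous recombination genes became 9 with a pseudocount of 0.1 FPKM, which left the other 3 counts as they were, and 3, 1 and 1 with that of 5 FPKM, after centring and with equal upper quartiles, 0 at 2-fold and 20 at the looser limit. The 4 checkpoint genes became 2, 1 and 2 under the same 3 settings, 1 at 2-fold and 10 at the looser limit. No share over all listed genes is given here for the 2-fold and the looser limit. The p-value limit leaves out genes near equal levels, so a high count at the looser limit says little about a list. Equal sums, other minimum levels and the restriction to q below 0.05, by the authors' deposited table, kept each count within 1.5 times. Depth is unknown, so no counting error can be given.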

Other observations

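Other repair routes were also represented in the table. Of 13 end joining genes 3 were listed, or 23.1%, and all 3 were lower, where 57.0% of all listed genes were: POLQ, the polymerase of microhomology-mediated joining, at 8.77 and 5.26 FPKM, XRCC5, the Ku80 subunit, at 131 and 107 FPKM, and PAXX, listed as C9orf142, at 43.9 and 34.6 FPKM. After centring, 2 of the 3 were lower. Of 36 mismatch and excision repair genes 5 were listed, or 13.9%, beside 14.2% of the genes the authors tested; how many of the 36 they tested is unknown. The glycosylase NEIL3 was at 8.12 and 3.80 FPKM, the damage sensor DDB2 at 13.7 and 8.70 FPKM, the ligase LIG1 at 11.01 and 7.22 FPKM and PARP2 at 31.3 and 22.4 FPKM. PMS2, a mismatch repair endonuclease subunit, was higher, at 11.8 and 16.3 FPKM, with a q-value of 0.140 in the authors' deposited table. It has near-identical copies and was singled out after its values were seen. PMS2P3, a pseudogene named after it, was also listed and higher, at 1.69 and 2.58 FPKM. The sources used here do not say how reads shared with such copies were assigned. BARD1 and PMS2 were the 2 higher genes among the 49 listed genes of the 5 repair lists.

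Likeness of pattern was the Euclidean distance in log2(FPKM + 1) over the 2 libraries, so it matches level as much as difference. Near to FANCD2 were KIF20B and KLK15 (0.0436 and 0.108). ERO1L, CKAP2 and NCAPD2 lay nearest to FANCI (0.0769, 0.125 and 0.152), and C4orf46, SKA1 and CTSL2 to BRCA2 (0.0358, 0.0433 and 0.0540). The nearest to CHEK2 were DSCC1, EGFR and NDC1 (0.0335, 0.0462 and 0.0505), and to BARD1 they were SLC12A7, ABHD4 and SIGIRR (0.0264, 0.0448 and 0.0473). KIF20B, a mitotic kinesin, stood at 12.7 and 6.91 FPKM beside 12.3 and 6.89 FPKM for FANCD2. With 2 libraries, such neighbours share a level and a ratio in this table and nothing more was measured.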
